A study of Mus musculus with 12 samples.

Results

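The TRIM (tripartite motif) family was described across tumors and cultured cells of a mouse melanoma model. Its members were all genes whose symbol in the deposited tables began with Trim followed by a digit, which gave 48 of 17285 genes. The samples came from #781, a melanoma line isolated from tumors of mice with Tyr-CreERT2 and BRAF CA, so that all groups share the melanocyte-directed Cre and the activated BRAF allele. There were 3 samples of #781 control cells (Nfe2l2 wildtype) and 3 of #781 NRF2 knockout cells (Nfe2l2 knockout, edited with a pair of guides) grown in culture. A further 3 tumors of control cells and 3 tumors of NRF2 knockout cells were grown under the skin of C57BL/6 mice. A single pair of control and knockout lines was injected. The study also describes a further, independent pair, and the labels do not state which pair the cultured samples came from. According to the study's methods the mice were young and of both sexes, and the labels do not state whether the cultured samples came from separate cultures.

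Each table gave 1 mean level per gene, the authors' mean log2 CPM (read counts scaled to a common library total). It was taken as a mean over NRF2 knockout and control samples together, which the tables do not state. The values of single samples were not analysed here, and the authors' own comparison of the genotypes in the tables was not used. No standard deviation, test or comparison of NRF2 knockout with control is therefore given for any TRIM gene, and every value below is a mean of 1 table with no replicate error. The tables were normalized separately, so a difference between tumors and cultured cells is a description. The lowest mean levels lay on even steps, and 1 step was 0.0414 CPM in tumors and 0.0402 CPM in cultured cells. Taken as 1 read each, these steps correspond to about 24200000 reads over all tumor libraries and 24900000 over all culture libraries. Of the genes under 2 CPM, 96.8% in tumors and 100% in cultured cells lay within 0.1 of a whole step. Nfe2l2, the edited gene, stood at 8.25 in tumors and 7.70 in cultured cells, which as a pooled mean is no check of the labels.

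TRIM proteins carry a RING finger, B-boxes and a coiled coil, and most act as ubiquitin ligases that choose their substrates through the C-terminal part. In the largest branch this part is a PRY-SPRY domain, which binds other proteins, among them viral ones. Many members of that branch are induced by interferon and take part in the sensing or restriction of viruses, while others repress transcription, organise microtubules or turn over muscle proteins.

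The sequences shown first belong to interferon-linked TRIM genes, since several of them sit side by side on chromosome 7 and have near-identical start regions. RefSeq promoter windows (GRCm38.p6, from 250 bases before to 50 after each annotated start) were matched by symbol for 37 of the 48 members. They were searched on both strands for the core of the interferon-stimulated response element, GAAA followed by 2 bases of any kind and a further GAAA. Counting a gene if any of its windows held these letters, it was present for 3.99% of all 27025 genes, for 8 of 14 matched interferon-linked members and for 1 of 23 other matched members. The 8 were Trim5, Trim12a, Trim12c, Trim21, Trim26, Trim30a, Trim30d and Trim34a, and the other one was Trim2. Below are 55 bases of the gene strand around the match, with the matching letters, here in reverse complement, in capitals. Only matches whose 55 bases end before the annotated start are printed, and Trim26 is added as an interferon-linked member with the letters whose level was nearly equal in both sample types. Its window holds a further match that overlaps the printed one.
Trim5 (chr7:104288131-104288185, minus strand): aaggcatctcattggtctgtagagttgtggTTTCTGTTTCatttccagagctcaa
Trim12c (chr7:104353354-104353408, minus strand): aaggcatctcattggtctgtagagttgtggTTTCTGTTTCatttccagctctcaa
Trim30a (chr7:104465205-104465259, minus strand): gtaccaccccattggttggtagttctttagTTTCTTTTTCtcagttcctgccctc
Trim30d (chr7:104507866-104507920, minus strand): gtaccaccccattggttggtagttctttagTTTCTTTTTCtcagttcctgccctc
Trim26 (chr17:36836956-36837010, plus strand): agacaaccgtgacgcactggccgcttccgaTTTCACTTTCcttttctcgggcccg

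The windows of Trim30a and Trim30d were identical over all 55 bases, and those of Trim5 and Trim12c over 53 of 55. Trim5 and Trim30a had 29 identical bases and Trim26 and Trim30a had 21. The core of the antioxidant response element, TGACNNNGC, through which NRF2 binds DNA, was present, counted in the same way, for 14% of all genes and for 5 of the 37 matched members, namely Trim2, Trim7, Trim15, Trim30b and Trim59. TTCNNNGAA, the core of the gamma-activated site, was present for 9.55% of all genes and for Trim15, Trim30c, Trim45 and Trim46. These are matches of letters and not tested binding sites.

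Most of the measured TRIM genes were expressed in both sample types, as were most genes. Annotated TRIM genes that were not measured are not counted here. Of the 48 members, 39 had a mean log2 CPM above 1 in tumors (81.2%, against 82.2% of all genes) and 34 in cultured cells (70.8%, against 74.8% of all genes), shares close to the background. Levels of different genes were set side by side only per length, as the mean log2 CPM minus log2 of the annotated exon length in kilobases. On this scale the median member was at 2.16 in tumors and 0.80 in cultured cells, against 2.49 and 2.32 for the median of all genes. Trim28 (KAP1), the corepressor that KRAB zinc finger proteins recruit to silence transposable elements, ranked first in both, at 5.70 in tumors and 6.68 in cultured cells per kilobase. Among the 12 highest members per kilobase, 8 were the same in tumors and in cultured cells. These were Trim8, Trim28, Trim30a, Trim35, Trim41, Trim44, Trim47 and Trim59. Trim35, a PRY-SPRY member, was at 5.49 per kilobase in tumors and 6.52 in cultured cells. Trim8, known to act in cytokine signaling, was at 5.49 and 5.24, and Trim47 at 5.43 and 5.01. The transmembrane member Trim59 was at 4.83 and 5.08, Trim44, which lacks a RING finger, at 4.76 and 4.70, and Trim41 at 4.23 and 4.18. Only in the first 12 of the tumors stood Trim25 and Trim30d, at 4.29 and 4.25 per kilobase, together with Trim11 at 3.77 and Trim16 at 3.68. In their place the cultured cells had Trim27 at 4.15, Trim37 at 3.98, Trim3 at 3.60 and Trim24 at 3.56 per kilobase.

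**Figure D1:**
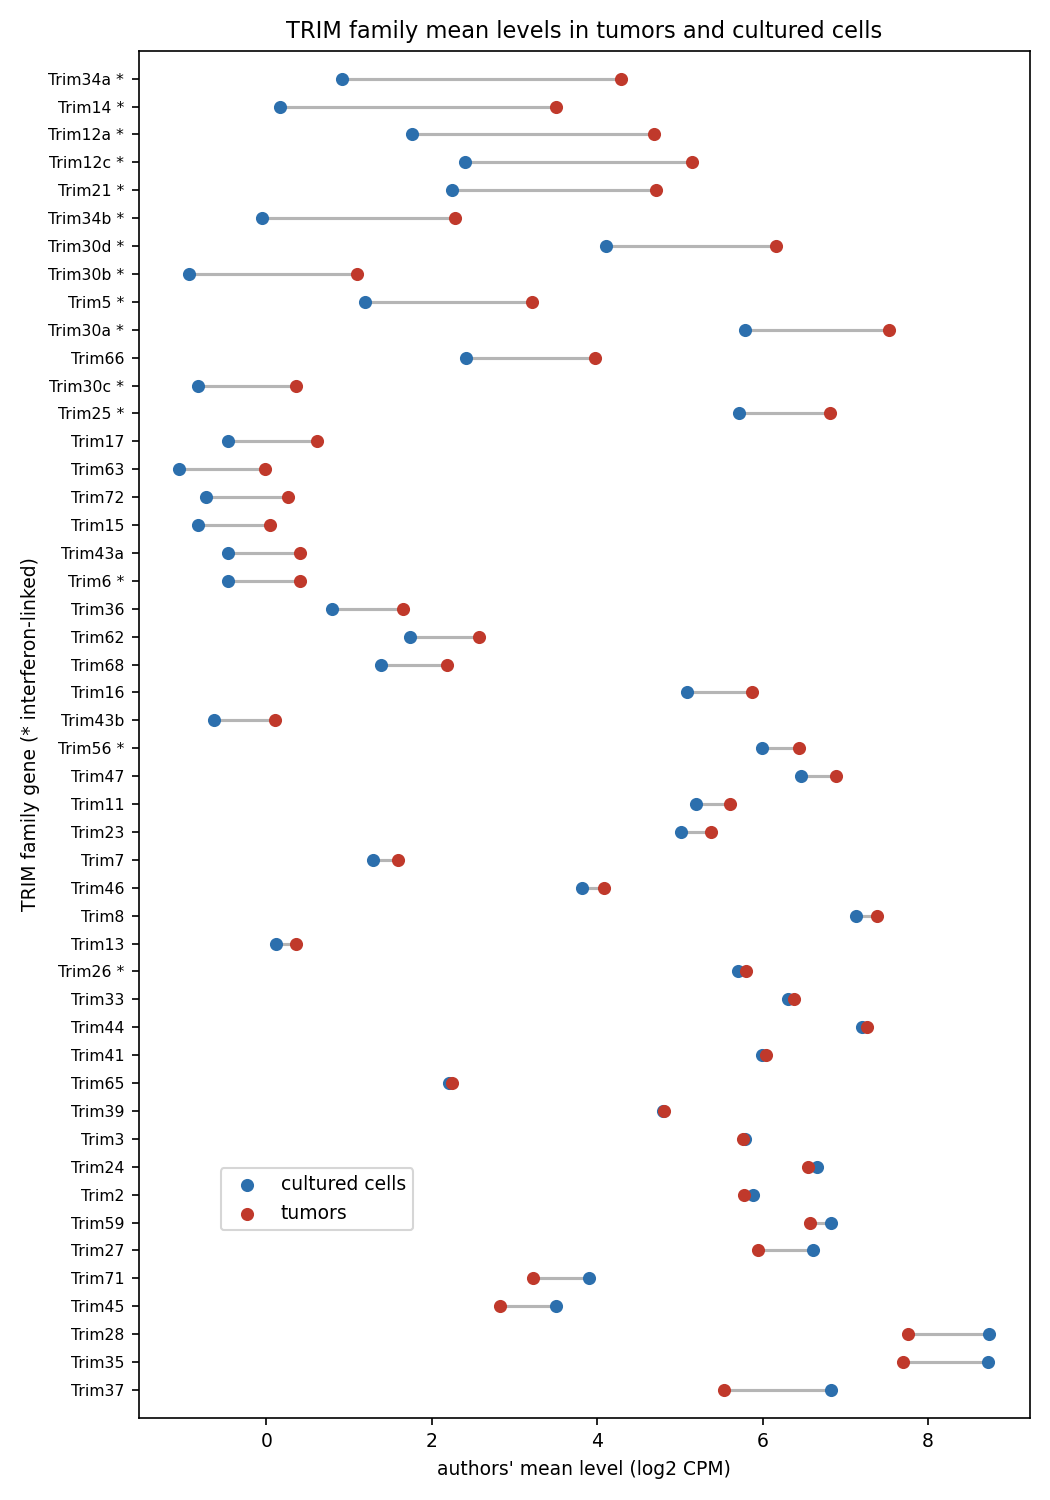
Authors' mean level (log2 CPM, not per length) of each of the 48 TRIM genes in tumors (red) and cultured cells (blue), ordered by the difference, with interferon-linked genes starred and no error bars because 1 mean per gene was used. The 10 genes with the largest positive difference are all starred, and Trim28, Trim35 and Trim37 stand at the other end.

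Levels of the same gene in tumors and in cultured cells were then compared. Among 16424 genes that exceeded a mean log2 CPM of 0 in at least 1 table, the median difference was 0.098 in favour of the tumors, and all differences are given relative to it. Among the 47 members in this set, 12 were higher in tumors by more than 1 on the log2 scale (25.5%, against 15.9% of all genes) and 3 were lower by more than 1 (6.38%, against 5.48%). The other 32 lay within 1. The member left out was Trim63, which encodes the muscle ligase MuRF1 and lay at −0.01 in tumors and at the lowest value of the table in cultured cells. Of the 12 higher members, 11 were interferon-linked, and the remaining one was Trim66. Just past the limit were Trim30c at 1.09 and Trim28 at −1.08. Just short of it were Trim25 at 0.99 and Trim17 at 0.98 on the higher side and Trim45 at −0.78 on the lower side. With the tables matched by rank in place of the median, Trim37 alone was lower by more than 1, since Trim28 was at −0.90 and Trim35 at −0.94, and 11 members were higher by more than 1. Without the 9 members that share over 10% of their sequence in 50-base stretches with other genes, 7 of 38 were higher by more than 1 (18.4%), a share nearer to that of all genes.

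Most interferon-linked TRIM genes had higher levels in tumors. Of 16 genes on this list, chosen from textbook knowledge with earlier results of these data known, 15 were measured. Of these, 11 were higher by more than 1, none was lower by more than 1, and the median difference was 1.94, against 0 for all genes by construction. Trim6, Trim30b, Trim30c and Trim34b, of which 3 are among the 11, were below 0 in cultured cells. The smallest number of reads summed over tumors and culture for any gene was 12. Trim6, Trim30b and Trim30c, with about 6, 1 and 2 reads in culture, could be listed only through reads in tumors. Trim34b had about 12 reads in culture and reached that number without tumor reads. Without genes below 0 in cultured cells, 8 of 11 interferon-linked members and 1 of 27 other members were higher by more than 1, against 8.7% of all genes. The summed level of the 15 was 647 CPM in tumors and 262 CPM in cultured cells. The 33 other members had 1672 CPM in tumors and 2105 CPM in cultured cells, and the 32 of them above the limit on low values had a median difference of 0.15.

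Trim14, a RING-less adaptor of antiviral signaling at mitochondria, had a mean log2 CPM of 3.50 in tumors and 0.17 in cultured cells, a difference of 3.23. The level in cultured cells rests on about 16 reads over all libraries. Of its annotated exon bases on chromosome 4 (46493781 to 46536141), 38.0% overlap genes on the opposite strand, among them Nans, and the counting is not stated to use strand. Trim21 is the cytosolic antibody receptor that marks antibody-coated viruses for degradation. It was at 4.71 in tumors and 2.25 in cultured cells, a difference of 2.37, and shared 0.216% of its 50-base stretches with other genes. Trim25, which ubiquitinates the RNA sensor RIG-I, was at 6.81 and 5.72, a difference of 0.99. Ddx58, the gene of RIG-I, was at 7.07 and 4.82, a difference of 2.15. Trim56, reported to act on STING, was at 6.44 and 6.00, and Trim26 at 5.79 and 5.70. With differences of 0.35 and −0.00, Trim56 and Trim26 had the smallest differences of the list, although with the tables matched by rank Trim6 was at 0.14 and Trim56 at 0.44.

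The remaining 10 interferon-linked members form one cluster on chromosome 7 of GRCm38 (chr7:104218793-104507849), which spans 289.1 kb and runs in the order Trim6, Trim34a, Trim5, Trim12a, Trim34b, Trim12c, Trim30b, Trim30c, Trim30a and Trim30d. It holds the rodent relatives of TRIM5, TRIM6 and TRIM34, of which human TRIM5 is known to restrict retroviruses at the capsid. Of the 10, 9 were higher in tumors by more than 1, with a median of 1.95, and the 6 that were above 0 in cultured cells were each higher by more than 1. Trim34a went from 0.92 in cultured cells to 4.29 in tumors, a difference of 3.27 that was close to the 3.23 of Trim14. The level of Trim34a in cultured cells rests on about 35 reads over all libraries. Of its annotated exon bases, 23.5% overlap Gm47248 on the opposite strand. With the lowest value of each table subtracted, Trim14 was above Trim34a, at 4.05 against 3.74. Trim12a was at 1.76 and 4.69 and Trim12c at 2.40 and 5.14, differences of 2.84 and 2.65. Trim5 was at 1.20 and 3.21, a difference of 1.91. Trim30a, which is known in mice to restrain NF-kB signaling, was the most abundant of the cluster per kilobase in both sample types. It was at 5.78 in cultured cells and 7.53 in tumors, a difference of 1.65, and its neighbour Trim30d at 4.10 and 6.16, a difference of 1.96. Near the detection limit in cultured cells were Trim34b at −0.05, Trim6 at −0.47, Trim30c at −0.83 and Trim30b at −0.93, about 12, 6, 2 and 1 reads over all libraries. In tumors they were at 2.28, 0.41, 0.36 and 1.10.

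**Figure D2:**
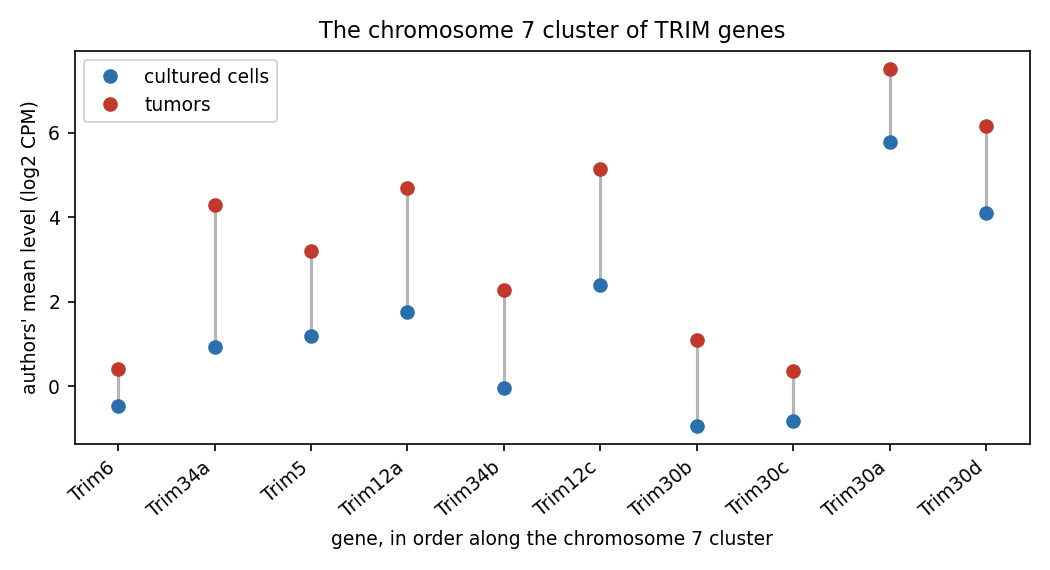
Authors' mean level (log2 CPM) of the 10 TRIM genes of the chromosome 7 cluster, in their order along the chromosome, in cultured cells (blue) and tumors (red). Every tumor value lies above its culture value, from 0.41 against −0.47 for Trim6 to 7.53 against 5.78 for Trim30a.

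Several genes of the cluster are close copies, and a short read can fit more than 1 of them. Of all 50-base stretches in the annotated transcripts, Trim34b shared 56.8% and Trim34a 39.8% with the other, and Trim5 shared 23.5% and Trim12c 24.2% with each other. The share with all other genes together was 36.3% for Trim5, 33.0% for Trim12c and 10.4% for Trim12a. For Trim30a this share was 5.98% and for Trim30d 7.49%. Neither the read length nor the handling of such reads is stated in any source used here, so the split between copies is uncertain. Summing copies does not depend on that split within the sum. Trim34a and Trim34b together had 24.4 CPM in tumors and 2.86 CPM in cultured cells, and Trim5, Trim12a and Trim12c together 70.4 and 10.9 CPM. Trim30a and Trim30d together had 255.6 and 72.2 CPM. As deposited, the sums were 8.54-fold, 6.43-fold and 3.54-fold higher in tumors. Each summed gene carries the lowest value of its table even without reads, 0.48 CPM in cultured cells and 0.50 CPM in tumors. This makes the folds of sums that are low in culture smaller. With the lowest value subtracted, Trim34a had 19.1 CPM in tumors and 1.41 in cultured cells, and Trim34b 4.35 and 0.48.

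Host cells contribute RNA to a tumor but not to a culture, and levels of markers of these cells are given here beside those of the TRIM genes. All 5 macrophage markers were higher in tumors by more than 1, with a summed level of 411 CPM against 4.39 CPM. All 4 leukocyte markers (228 against 4.75 CPM) and all 4 endothelial markers (140.7 against 2.33 CPM) were higher by more than 1 as well. These marker sums include, for each gene, the lowest value of the table, 0.48 CPM in cultured cells and 0.50 CPM in tumors. Below 0 in cultured cells were 4 of the 5 macrophage, 3 of the 4 leukocyte and all 4 endothelial markers. Genes so low in culture were listed mainly through reads in tumors, so their direction was largely set by the listing. Of 3 T cell markers, all of them below 0 in cultured cells, Cd8a at 1.52 was higher by more than 1, at 3.54 summed CPM in tumors. Of 2 keratinocyte markers above the limit on low values, Krt10 differed by 0.44 and Krt14 by 0.88. Of 4 fibroblast markers, 3 were higher by more than 1, with 8.48 for Dcn and 4.46 for Pdgfra, while Col1a1 and Col3a1 were also high in cultured cells, at 9.70 and 9.79. Of the 7 melanocyte markers listed, Mitf stood at 4.23 in tumors and 2.67 in cultured cells and Pmel at 0.05 and −0.31. The other markers of this list were not found by symbol among the 17285 genes. In such bulk samples a larger number of cells of a type and more RNA per cell cannot be told apart. The part of host cells in the TRIM levels was not tested. In cultured cells the highest macrophage and leukocyte markers were Laptm5 at 1.49 and Cd68 at 1.09, and the others ranged from −1.05 to −0.24.

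**Figure D3:**
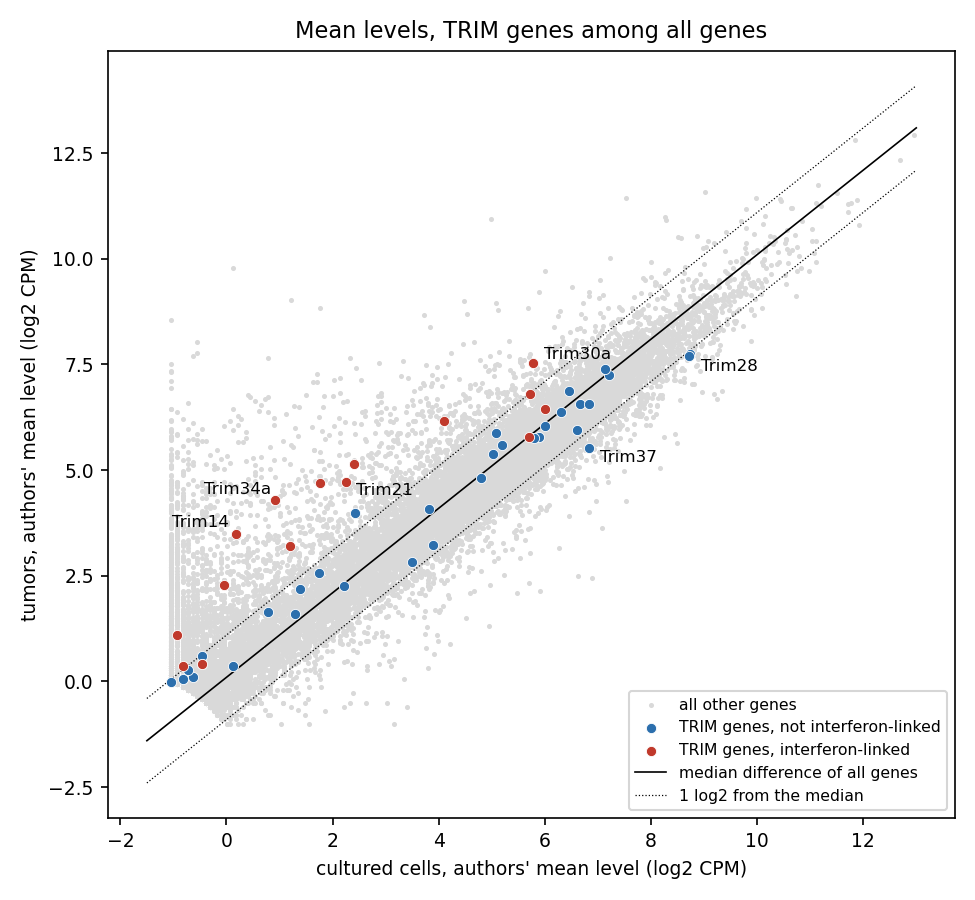
Mean level in tumors against cultured cells (authors' mean log2 CPM) of all genes (grey), interferon-linked TRIM genes (red) and other TRIM genes (blue), with the median difference of all genes as a line and 1 log2 from it dotted. Red points lie mostly above the upper dotted line, with Trim34a at 4.29 against 0.92, and blue points mostly follow the median line.

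The share of genes higher in tumors by more than 1 fell with the level in cultured cells. That level is itself part of the difference, so some of this fall can come from how the difference is formed. Among all genes below 0 in cultured cells, 68.9% were higher in tumors by more than 1. From 0 to 3 the share was 18.4%, from 3 to 6 it was 6.6%, and from 6 on it was 2.53%. In the same ranges 3 of 9, 7 of 13, 2 of 15 and 0 of 10 members were higher by more than 1. The smallest number of reads summed over both tables was 12, reached by 171 genes, so a gene nearly without reads in culture was listed only if the tumors had reads. Of the 10 members below 0 in cultured cells, those with about 0 to 4 reads there could therefore hardly be as low in tumors. Trim6, Trim17 and Trim43a, with about 6 reads in culture, and Trim34b, with about 12, could have been as low. The differences of all 10 stand as a description of their levels only.

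The members that act on chromatin moved differently from each other. Trim28 was at 7.75 in tumors and 8.74 in cultured cells, a difference of −1.08. Trim24 and Trim33, its relatives with a PHD finger and a bromodomain, of which Trim33 acts on SMAD4, were at 6.55 and 6.38 in tumors and at 6.65 and 6.31 in cultured cells. Their differences were −0.20 and −0.03. Trim66, the fourth of this branch, was at 3.98 in tumors and 2.42 in cultured cells, a difference of 1.46. It was the one member outside the interferon-linked list past 1. With the tables matched by rank it was at 1.00, just under that limit. It was joined by Trim36 at 1.07 with the lowest values subtracted, and by Trim17 at 1.08 with differences as deposited. Setdb1, the histone methyltransferase that works with TRIM28, differed by −0.41, and Smad4 by −0.46.

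Trim37 was the member with the largest difference in the other direction, at 5.53 in tumors and 6.83 in cultured cells, which is −1.40. TRIM37 is known for its roles in peroxisomal import and centriole duplication, and its gene lies on chromosome 11 from 87127077 to 87220683. Trim35 followed at −1.13, with 7.70 in tumors and 8.73 in cultured cells. Trim45 at −0.78, Trim71 at −0.77 and Trim27 at −0.76 were lower in tumors by less than 1. Trim71 is the let-7 target LIN41, an RNA-binding member with NHL repeats. The NHL members Trim2 and Trim3, known from neurons, were at 5.77 and 5.77 in tumors and 5.88 and 5.79 in cultured cells, differences of −0.21 and −0.12.

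PRY-SPRY members outside the interferon-linked list differed less between the sample types. Of 16 PRY-SPRY members that are not interferon-linked, none was higher by more than 1, 1 was lower by more than 1 (Trim35), and the median difference was 0.49. Trim16, which responds to damaged endomembranes, differed by 0.69, with 5.87 in tumors and 5.08 in cultured cells. Trim11 differed by 0.31, Trim47 by 0.33, Trim41 by −0.06, Trim39 by −0.08 and Trim65 by −0.06. Trim7 at 0.20, Trim68 at 0.70 and Trim62 at 0.74 had lower levels, with 1.59 to 2.58 in tumors. Trim15, Trim17, Trim43a, Trim43b and Trim72 had 13, 25, 20, 14 and 17 reads over all tumor libraries and 2, 6, 6, 4 and 3 over all culture libraries. Trim43a and Trim43b shared 45.8% and 47.7% of their 50-base stretches with other genes, and Trim17 shared 17.7% with Hist3h2a.

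**Figure D4:**
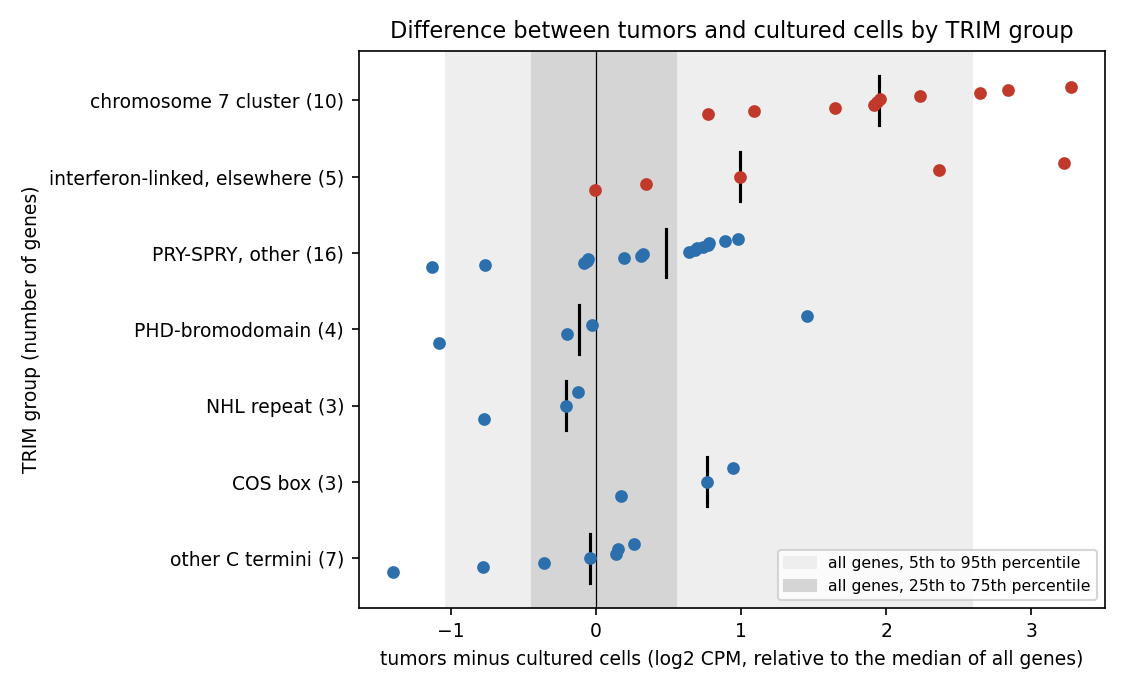
Difference between tumors and cultured cells (log2 CPM, relative to the median of all genes) for each of the 48 TRIM genes by group, with the group median as a black bar and the ranges of all genes in grey (25th to 75th and 5th to 95th percentile). The chromosome 7 cluster has a median of 1.95, and the other PRY-SPRY genes have a median of 0.49.

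The members of the other branches differed by less than 1 or were low. Trim8 and Trim44 differed by 0.16 and −0.04, Trim23, which carries an ARF domain, by 0.26, and Trim59 by −0.35. Trim13, which sits in the endoplasmic reticulum membrane, was low in both, with about 19 reads in tumors and 15 in culture, and shared 14.2% of its stretches with Gm9359. Of the microtubule-binding COS box members, Trim46, a protein of the axon initial segment, was at 4.09 in tumors and 3.82 in cultured cells, and Trim36 at 1.65 and 0.79. Trim63 had 12 reads over all tumor libraries and none in culture, and Trim72, which encodes the muscle repair protein MG53, had 17 and 3. All 5 skeletal muscle markers measured were higher in tumors by more than 1, from 1.04 for Mb to 3.79 for Myh4. All 5 were below 0 in cultured cells, 4 of them at the lowest value of the table. They were therefore listed through reads in tumors and could hardly be as low there. Whether the reads of Trim63 and Trim72 came from host muscle was not tested.

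Of 4 measured relatives with other names, Mefv, the pyrin gene of myeloid cells, was at 2.15 in tumors and at the lowest value of the table in cultured cells. Pml, the scaffold of nuclear bodies and also known to be induced by interferon, was at 6.39 in tumors and 6.59 in cultured cells, a difference of −0.30. Mid1 and Mid2, which bind microtubules, differed by −0.56 and 0.17. Of 5 measured ubiquitin-conjugating enzymes that work with TRIM ligases, none differed by more than 1, with values from −0.25 for Ube2n to 0.08 for Ube2d1. Of 10 targets and partners, Ddx58 was higher by more than 1, and Trp53, a target of TRIM24 and TRIM28, was lower at −1.25. Mavs, Tbk1, Irf3, Ikbkg and Tab2 lay between −0.24 and 0.11.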

How the data were processed

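Poly(A) RNA of cultured cells and whole tumors was sequenced from NEBNext Ultra II libraries. The submitters' processing notes name FastQC, Bowtie2 2.3.2, TopHat2 2.1.1 and mm10; the annotation, counting program and normalization: not given in the sources used here. From the 2 deposited tables, 1 for tumors and 1 for cultured cells, the authors' mean log2 CPM of each gene was used. The tables do not state over which libraries it was taken. The remaining columns hold fold changes and p-values of the authors' own knockout comparison and were not used. Counts per sample were not analysed here, so the planned count test was not run.

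Differences are tumors minus cultured cells, less the median over genes that exceeded a mean log2 CPM of 0 in at least 1 table. The calculation was run on simulated data with little noise and known shifts larger than the limit. That run checks the arithmetic only, since it held neither low reads nor separate normalization. Size alone (more than 1 on the log2 scale) decided what was counted. Gene models are GENCODE M21 (GRCm38, the build of mm10), in which all 48 members and 17230 of 17285 genes were found. Of its 68 protein-coding genes with such a symbol, 20 were not found by symbol among the 17285 genes. Reads of low genes were estimated from the steps of the lowest values. Named members were the 12 highest per kilobase in each table, the 8 largest differences each way, the interferon-linked, muscle, PHD-bromodomain and chromosome 7 cluster members, and the rest were added to account for every member. Members and lists were chosen with earlier results of these data known. Python 3.11.15, numpy 2.4.6, pandas 2.3.3 and matplotlib 3.10.9 were used. A further feature of the mouse model's genotype is not reported here.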

Additional observations from a re-analysis of the deposited data

How the results depend on the processing

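The count of 12 of 47 members higher in tumors by more than 1 was 14 of 47 with differences as deposited (29.8%, against 17.3% of all genes), 11 of 47 after matching the tables by rank (23.4%, against 11.4%), 12 of 48 with no limit on low values (25%, against 14.9%) and 8 of 34 above 1 in both tables (23.5%, against 8.6%). Further settings were chosen after seeing the data. Leaving out the 9 members that share over 10% of their 50-base stretches with other genes left 7 of 38 (18.4%, against 15.9% of all genes with no such limit). Among those left out were Trim5, Trim12a, Trim12c, Trim34a and Trim34b, all of them higher by more than 1. Leaving out genes below 0 in cultured cells left 9 of 38 (23.7%, against 8.7%). With the lowest value of each table subtracted, over members with at least 10 estimated reads in each, the count was 12 of 39 (30.8%, against 11.8% of all genes), and the difference was 4.05 for Trim14 and 3.74 for Trim34a. The 3 lower members were 1 after rank matching, which put Trim28 at −0.90 and Trim35 at −0.94; as deposited they were 2, with Trim28 at −0.98. Rank matching also put Trim30c at 0.49 and Trim66 at 1.00, under the limit, and Trim25 passed it there at 1.06 and as deposited at 1.09. Trim17 passed it as deposited, at 1.08. With the longest transcript as length, the median member per kilobase was at 2.84 in tumors and 1.03 in cultured cells. The median of all genes was not taken on this length, so these values cannot be set against the medians of all genes given above. The counts above a mean log2 CPM of 1 became 47 and 38 above 0, and 36 and 29 above 2. No paired analysis was possible because each table gave 1 pooled mean per gene, and for the same reason no replicate could be left out and DESeq2 was not run.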
